A study of Mus musculus with 6 samples.

Results

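The genes described here are 9 imprinted regulators of growth, *Meg3*, *H19*, *Dlk1*, *Cdkn1c*, *Peg3*, *Grb10*, *Plagl1*, *Ndn* and *Mest*. They were chosen by symbol and make up 9 of the 24421 rows of a bulk RNA-sequencing matrix, in which each symbol has a row of its own. The libraries came from 129S6/SvEv mice sacrificed at 8 weeks of age, all of which carried the conditional *CAG-Sun1/sfGFP* tracer allele, and the name of each matrix column is marked WT. The 3 SHF libraries hold GFP+ cells traced by a *Mef2c* SHF Cre allele, which marks descendants of the secondary heart field, and the 3 CNC libraries hold GFP+ cells traced by *Wnt1-Cre2*, which marks descendants of the cardiac neural crest. Living GFP+ cells were sorted from the enzymatically digested aortic root and ascending aorta. Since each Cre allele traces descent, a library can hold every traced cell type of the tissue. The groups were compared to ask how far the expression of these genes depends on the embryological origin of the cells. The unit is TPM, a transcript level per length relative to the total of the library. TPM keeps no record of sequencing depth, and the depth behind each value is unknown. In the labels the replicates are separate samples, and the study calls them biological replicates.

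An imprinted gene is expressed mainly from the copy inherited from 1 parent, because a DNA methylation mark laid down in the germline silences the other copy or its control region. Imprinted genes lie in domains that share a control region, and many of them act on fetal growth and are turned down after birth. Maternally expressed genes tend to restrain growth and paternally expressed genes tend to promote it. By this convention *Meg3*, *H19*, *Cdkn1c* and *Grb10* are maternally expressed in most tissues, and *Dlk1*, *Peg3*, *Plagl1*, *Ndn* and *Mest* are paternally expressed. The parental origin of the transcripts was not measured here, because the matrix holds a single level per gene.

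The 9 genes lie on 5 chromosomes (GRCm38, GENCODE M21). *Dlk1* (chromosome 12, 109452823 to 109463336, plus strand) and *Meg3* (chromosome 12, 109541001 to 109571726, plus strand) belong to the same domain and lie 77.7 kb apart. *H19* (chromosome 7, 142575529 to 142578143, minus strand) and *Cdkn1c* (chromosome 7, 143458339 to 143461050, minus strand) lie 880.2 kb apart and are controlled by different imprinting centres. Chromosome 7 also carries *Peg3* (6703892 to 6730431, minus strand) and *Ndn* (62346569 to 62350262, plus strand). *Grb10* lies on chromosome 11 (11930508 to 12038683, minus strand), *Plagl1* on chromosome 10 (13060504 to 13131694, plus strand) and *Mest* on chromosome 6 (30723547 to 30748465, plus strand). *Meg3* and *H19* are long noncoding RNA genes and the other 7 code for proteins. The 3' end of *Mest* overlaps that of *Copg2*, which is read from the opposite strand. Reads from that overlap cannot be assigned to either gene by strand, since this library preparation does not mark strand.

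Of the 9 genes 3 are hosts of microRNAs, small RNAs that repress target transcripts through their seed. Their mature sequences (RefSeq, GRCm38.p6) are shown here, 5' to 3', because they are part of what each host transcript encodes. The seed, bases 2 to 8, is in capitals.
mmu-miR-770-5p, in *Meg3*: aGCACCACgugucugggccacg
mmu-miR-770-3p, in *Meg3*: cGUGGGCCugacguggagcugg
mmu-miR-675-5p, in *H19*: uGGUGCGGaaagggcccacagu
mmu-miR-675-3p, in *H19*: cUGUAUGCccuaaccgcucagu
mmu-miR-335-5p, in *Mest*: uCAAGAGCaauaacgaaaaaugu
mmu-miR-335-3p, in *Mest*: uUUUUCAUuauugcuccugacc
The 6 seeds all differ. A further microRNA gene within *Meg3*, *Mir1906-1*, is not shown, since RefSeq lists the same mature sequence at another locus as well. The rows *Mir770*, *Mir675* and *Mir335* are listed at 0 in every library. The amplified cDNA was primed on poly(A) tails, so that mature microRNAs are not measured and the levels below are those of the host transcripts.

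Among the 9 genes *Dlk1*, near 0, and *Meg3*, detected in every library, are neighbours. For that reason the 250 bases before a start of each are shown, from RefSeq on GRCm38.p6, plus strand. CpG dinucleotides, at which DNA can be methylated, are in capitals. The windows are chr12:109452573-109452822 for *Dlk1* and chr12:109540746-109540995 for *Meg3*.
*Dlk1*: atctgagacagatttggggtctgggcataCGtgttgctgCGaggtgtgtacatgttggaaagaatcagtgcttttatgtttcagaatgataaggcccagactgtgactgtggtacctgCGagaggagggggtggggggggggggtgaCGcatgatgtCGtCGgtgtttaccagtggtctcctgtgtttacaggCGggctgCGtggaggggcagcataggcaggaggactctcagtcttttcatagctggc
*Meg3*: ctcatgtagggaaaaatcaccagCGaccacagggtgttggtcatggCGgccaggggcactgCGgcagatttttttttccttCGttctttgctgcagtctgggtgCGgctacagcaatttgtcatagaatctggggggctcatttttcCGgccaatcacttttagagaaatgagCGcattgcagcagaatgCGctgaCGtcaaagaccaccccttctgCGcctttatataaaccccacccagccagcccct
The *Dlk1* window holds 8 CpG dinucleotides and the *Meg3* window 10. The *Meg3* sequence has the letters TATAAA, which begin 25 bases before the start, and the *Dlk1* sequence does not. RefSeq windows of 300 bases (250 before and 50 after a start) were matched for 7 of the 9 genes, 11 windows in all. TATAAA was searched on both strands and was found in 13.6% of the 32851 promoter windows of the mouse genome. The windows of the 7 genes held between 1 and 45 CpG dinucleotides with a median of 13, against a median of 7 over all windows, and 10 of the 11 were above that median. The window with 45 was a *Grb10* start, and 98.1% of all windows had fewer. The window with 1 was a further *Meg3* start, at 109545398, which is not shown and has no TATAAA. *Grb10*, *Meg3* and *Mest* had more than 1 window each, so that the 11 are not independent. The *Mest* starts at 30738050 and 30738053 nearly coincide. Expression was measured in these libraries but not methylation.

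Of the libraries as a whole, 9255 to 11858 rows were above 0. Low input can cause transcripts to be missed, and among rows with a mean between 10 and 100 TPM 34.3% were listed at 0 in some library. A value of 0 is therefore given as listed at 0 and not as absence. The summed level of 11 fibroblast markers was 44865 to 63876 TPM in SHF and 65309 to 71493 TPM in CNC libraries, without overlap, and that of 11 smooth muscle markers 1496 to 3119 TPM and 1309 to 2037 TPM. The study describes the cells as vascular smooth muscle cells, and the ratio of the former sum to the latter was 15.4 to 54.6 in a library. Most of the fibroblast sum came from *Gsn*, *Dcn*, *Col3a1* and *Col1a1*. *Col1a2*, *Lum*, *Serpinf1* and *Pi16*, with means from 2894 down to 1102 TPM, were also above *Acta2* and *Myl9*, with means of 630 and 643 TPM. *Dpt*, *Clec3b* and *Pdgfra*, with means of 551, 268 and 156 TPM, were below both. *Tagln* had a mean of 309 TPM, and the other smooth muscle markers, from 3.57 to 85.6 TPM, were below *Pdgfra*. Of 10 endothelial markers the sum was 89.5 to 591 TPM in SHF libraries and 37.6 to 61.0 TPM in CNC libraries. *Cdh5*, *Emcn*, *Tie1*, *Cldn5* and *Vwf* were listed at 0 in each CNC library. *Pecam1*, at 9.72, 37.86 and 19.81 TPM, and *Tek*, at 36.71, 23.1 and 1.11 TPM across CNC replicates 1, 2 and 3, were above 0 in each. *Kdr*, *Erg* and *Egfl7* were above 0 in some CNC library. Of 10 cardiomyocyte markers the sum was 94.0 to 289.8 TPM in SHF libraries and 0 to 135.7 TPM in CNC libraries. Of 10 leukocyte markers it was 177.9 to 386.6 TPM and 18.5 to 569.4 TPM, with *Ptprc* listed at 0 throughout. *Cd74* alone was at 258.07, 386.63 and 151 TPM across the SHF and at 71.64, 267.31 and 8.09 TPM across the CNC replicates. The study also reports *Cd74* in a subset of smooth muscle cells. The sum of 10 Schwann cell markers was 116 to 141 TPM in SHF and 102 to 230 TPM in CNC libraries. In bulk samples fewer cells of a type and less RNA per cell cannot be told apart. *Xist* was above 0 in SHF replicates 2 and 3 only, at 51.95 and 38.76 TPM, and *Ddx3y*, on the Y chromosome, was above 0 in the other 4 libraries only, so that the sex of the mice and the lineage are partly confounded.

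The 9 genes fell into a group detected in every library and a group listed at 0 in some library. *Ndn*, *Mest*, *Grb10*, *Meg3* and *Peg3* were above 0 in every library, whereas *Cdkn1c* was low and *H19*, *Dlk1* and *Plagl1* were listed at 0 in most libraries. Of the 9 genes 5 (55.6%) were above 0 in all 6 libraries, against 26.1% of all rows of the matrix. Both parental classes were on both sides of this divide, with 2 of 4 maternally expressed and 3 of 5 paternally expressed genes above 0 in all 6 libraries. Together the 9 genes held 0.032% to 0.0513% of a library, and their sum was 388.57, 325.15 and 319.55 TPM across SHF replicates 1, 2 and 3 and 460.3, 513.21 and 333.4 TPM across CNC replicates 1, 2 and 3. The sums of the lineages overlapped.

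**Figure D1:**
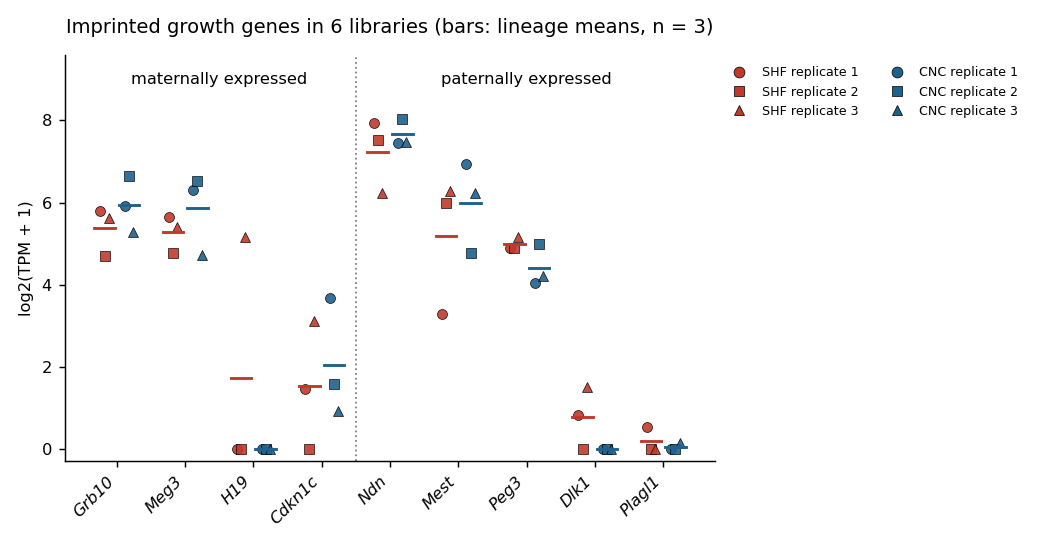
Level of each imprinted growth gene as log2(TPM + 1) in the 3 SHF and 3 CNC libraries, with a point per library and a bar for each lineage mean (n = 3). *Ndn* was the most abundant in 5 of 6 libraries, *H19* was above 0 in SHF replicate 3 only, and for none of the 9 genes did the lineages separate.

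*Ndn* codes for necdin, a MAGE family protein that restrains cell cycle entry and is best known from postmitotic neurons. Its level was 244.92, 182.76 and 74.41 TPM across SHF replicates 1, 2 and 3 and 175.04, 263.16 and 177.67 TPM across CNC replicates 1, 2 and 3. The mean was 167 ± 86.3 TPM (SD, n = 3) in SHF and 205 ± 50.1 TPM (SD, n = 3) in CNC libraries, with the lowest value in SHF replicate 3 and the highest in CNC replicate 2, so that the lineages overlapped. By mean TPM *Ndn* ranked 823 of 24421 rows, and it exceeded the other 8 genes in every library apart from *Mest* in SHF replicate 3. It made up 23.3% of the summed level of the 9 genes in SHF replicate 3 and 38% to 63% in the other libraries.

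*Mest* codes for a membrane protein with a predicted hydrolase fold and is widely expressed in embryonic mesoderm. It was at 8.69, 62.34 and 76.28 TPM across SHF replicates 1, 2 and 3 and at 120.84, 26.43 and 73.72 TPM across CNC replicates 1, 2 and 3. This was the most variable of the 5 genes above 0 in every library, with a highest value 13.9 times its lowest, and the low and high libraries occurred in both lineages. Among the 1209 tested genes whose mean log2 level lay within 0.5 of that of *Mest*, 87.8% had a smaller spread between replicates.

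*Peg3* codes for a large zinc finger protein that acts in growth, p53 signalling and maternal behaviour. It was at 28.72, 28.76 and 34.83 TPM across SHF replicates 1, 2 and 3 and at 15.35, 30.49 and 17.44 TPM across CNC replicates 1, 2 and 3. It varied least, with a highest value 2.27 times its lowest. Of the 1498 tested genes within 0.5 of its mean log2 level, 3.47% had a smaller spread between replicates. The lineages overlapped through CNC replicate 2, which was above SHF replicates 1 and 2.

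*Meg3*, a long noncoding RNA that is read from the maternal chromosome, was at 49.25, 26.32 and 41.43 TPM across SHF replicates 1, 2 and 3 and at 78.36, 91.4 and 25.49 TPM across CNC replicates 1, 2 and 3. *Grb10*, which codes for an adaptor that binds activated insulin and IGF1 receptors and dampens their signal, was at 54.04, 24.97 and 48.17 TPM across the SHF and at 58.96, 99.77 and 38.1 TPM across the CNC replicates, in the same order. For both genes CNC replicate 2 was the highest library, and SHF replicate 2 and CNC replicate 3 were the 2 lowest. Within a library the level of *Grb10* was from 0.752 to 1.5 times that of *Meg3*. After each profile was centred on its own mean, the root mean square difference between the 2 genes over the 6 libraries was 0.29 on the log2 scale, and 11 tested genes (0.108% of the rest) were closer to *Meg3* than *Grb10* was. The genes lie on different chromosomes, the pair was the closest of the 15 pairs that the 6 tested genes form, and no test was made.

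*Cdkn1c* codes for p57, an inhibitor of cyclin-dependent kinases that holds cells out of the cycle. It was at 1.74, 0 and 7.59 TPM across SHF replicates 1, 2 and 3 and at 11.75, 1.96 and 0.88 TPM across CNC replicates 1, 2 and 3. High and low values occurred in both lineages. The related inhibitor *Cdkn1a*, which codes for p21, exceeded it in every library, by 10.6 to 160 times in the 5 libraries in which *Cdkn1c* was above 0.

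*H19*, a noncoding RNA that is abundant in the fetus and falls after birth, was listed at 0 in 5 of the 6 libraries and stood at 34.99 TPM in SHF replicate 3. There it ranked 5 of 9, above *Peg3* at 34.83 TPM. Of the 24421 rows, 1669 were above 0 in a single library. Of these, 58 reached at least 30 TPM in it, and 10 of the 58, *H19* included, did so in SHF replicate 3. The endothelial markers summed to 525 TPM in that library and to 591 TPM in SHF replicate 2, where *H19* was listed at 0, and the part of other cell types in this value was not tested.

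*Dlk1* codes for a membrane protein of the Delta family that keeps preadipocytes undifferentiated. Its highest level was 1.85 TPM, in SHF replicate 3. SHF replicate 1 had 0.76 TPM, and the other 4 libraries were listed at 0. *Plagl1* codes for a zinc finger factor that regulates other imprinted genes, and was at 0.45 TPM in SHF replicate 1, at 0.1 TPM in CNC replicate 3 and listed at 0 in the other 4 libraries. SHF replicate 3 was thus the highest library for *H19* and *Dlk1* and the lowest for *Ndn*.

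**Figure D2:**
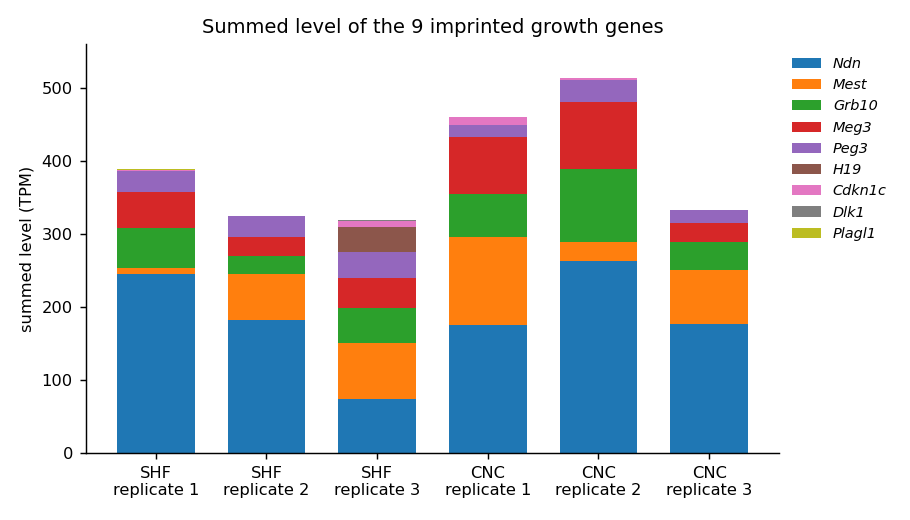
Summed TPM of the 9 imprinted growth genes in each library, stacked by gene. The total runs from 319.55 TPM in SHF replicate 3 to 513.21 TPM in CNC replicate 2, and *Ndn* is the largest part in 5 of 6 libraries.

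The order of the levels was compared within libraries. *Ndn* exceeded *Mest* in 5 of 6 libraries and *Grb10*, *Meg3* and *Peg3* in 6 of 6. *Mest*, *Grb10* and *Meg3* could not be ordered beyond their spread, since *Mest* exceeded *Grb10* in 4 of 6 libraries, *Mest* exceeded *Meg3* in 4 of 6 and *Grb10* exceeded *Meg3* in 4 of 6. *Grb10* and *Meg3* each exceeded *Peg3* in 5 of 6 libraries, and *Mest* did in 4 of 6, so that these were not ordered in every library either. All 5 exceeded *Cdkn1c* in 6 of 6 libraries. *H19*, *Dlk1* and *Plagl1* were listed at 0 in most libraries and were not ordered.

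Between lineages no difference of the 9 genes passed the test. Levels were compared with limma on log2(TPM + 1), SHF minus CNC, over the 10185 genes that reached 1 TPM in 3 or more libraries, and an adjusted p under 0.05 was the threshold. *H19*, *Dlk1* and *Plagl1* did not reach this minimum, and the other 6 were tested. By limma with Benjamini-Hochberg adjustment 0 of the 6 passed, against 0 of 10185 genes (0%), and 0 of the 6 had an unadjusted p under 0.05, against 597 of all genes (5.86%). The difference in log2(TPM + 1) was -0.80 ± 0.88 (SE) for *Mest*, -0.58 ± 0.61 (SE) for *Grb10*, -0.58 ± 0.66 (SE) for *Meg3*, -0.53 ± 1.24 (SE) for *Cdkn1c*, -0.43 ± 0.47 (SE) for *Ndn* and 0.58 ± 0.75 (SE) for *Peg3*. Their adjusted p-values by limma ran from 0.904 to 0.954. The means were thus lower in SHF for 5 of the 6 genes and higher for *Peg3*, with a median of -0.55, and each difference was smaller than its standard error from limma. That of *Peg3* was larger than the SD between its own replicates, 0.37 on the log2 scale. Of the 11 fibroblast markers 10 had lower means in SHF too, with a median difference of -0.56. By limma 0 of them passed the adjusted threshold and 6 had an unadjusted p under 0.05, against 5.86% of all genes, and 6 had no overlap between lineages, which held for 11.8% of all genes. With a library left out the median of the imprinted genes ran from -0.79 to -0.24, and it was -0.29 without SHF replicate 2, -0.34 without CNC replicate 1 and -0.24 without CNC replicate 2. With library weights it was -0.23, with -0.17 for *Meg3* and -0.28 for *Grb10*, and without the libraries that hold *Xist* it was -0.19. That of the fibroblast markers was -0.86 without SHF replicate 3. The part of these markers in the differences of the imprinted genes was not tested. Over all genes tested, 5215 were higher and 4970 lower in SHF, with a median difference of 0.02.

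The intervals show what these libraries leave possible. The 95% interval of the difference was -1.46 to 0.60 for *Ndn*, -1.93 to 0.77 for *Grb10*, -2.03 to 0.88 for *Meg3* and -1.08 to 2.24 for *Peg3*, and the widest was that of *Cdkn1c*, -3.25 to 2.19. For *Mest* it was -2.73 to 1.13. A difference of 1 on this scale, which is a 2-fold change of TPM + 1, lay inside the interval in at least 1 direction for each of the 6 genes. The exact permutation test, two-sided, has a smallest p of 0.1 for 3 libraries against 3. This exact test gave p = 0.3 for *Peg3*, 0.4 for *Grb10*, 0.5 for *Meg3* and 0.6 for *Ndn*, *Mest* and *Cdkn1c*. For 0 of the 9 genes did every library of a lineage exceed every library of the other, which held for 11.8% of all genes tested (6.11% with SHF higher and 5.68% with CNC higher). The study selected lineage-exclusive transcripts with a threshold on TPM. Its rule was applied here as above 5 TPM in each library of a lineage and 0 in each of the other, by which 0 of the 9 qualified, against 34 of all 24421 rows (0.139%).

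**Figure D3:**
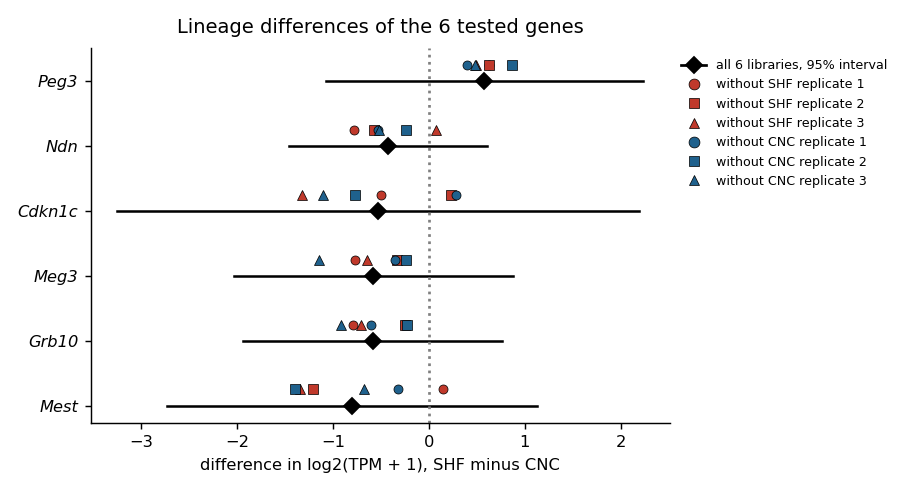
Difference in log2(TPM + 1), SHF minus CNC, of the 6 tested genes from all libraries (diamond, with its 95% interval from limma) and after leaving out each library in turn (coloured symbols). Each interval includes 0, and *Mest*, *Ndn* and *Cdkn1c* cross 0 when a single library is left out.

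Single libraries decided the direction of 3 of the 6 genes. Without SHF replicate 1, the library in which it was at 8.69 TPM, the difference of *Mest* was 0.15. Without SHF replicate 3 the difference of *Ndn* was 0.07. The difference of *Cdkn1c* was 0.23 without SHF replicate 2 and 0.28 without CNC replicate 1. *Meg3* and *Grb10* stayed lower in SHF, from -1.14 to -0.24 and from -0.91 to -0.23, and *Peg3* stayed higher, from 0.39 to 0.87, whichever library was left out. Without the SHF libraries in which *Xist* was above 0, SHF replicate 1 against the 3 CNC libraries gave -2.70 for *Mest*, -0.20 for *Meg3*, -0.17 for *Grb10*, -0.60 for *Cdkn1c*, 0.49 for *Peg3* and 0.28 for *Ndn*, a fit in which the lone SHF library is assumed to vary like the others.

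Other imprinted genes of the same domains stood at other levels. In the *Dlk1*-*Meg3* domain *Rian*, a maternally expressed noncoding RNA 32.2 kb beyond *Meg3*, was at 40, 2.65 and 27.11 TPM across SHF replicates 1, 2 and 3 and at 11.81, 44.79 and 31.17 TPM across CNC replicates 1, 2 and 3. The level of *Meg3* was from 0.818 to 9.93 times that of *Rian*, with SHF replicate 2 at the upper end. *Mirg*, a further noncoding RNA of the domain, was from 0 to 9.51 TPM. *Rtl1*, a paternally expressed gene derived from a retrotransposon, was at 4.56, 11.88 and 3.42 TPM across the SHF and at 0, 3.21 and 2.81 TPM across the CNC replicates. Its lineages did not overlap, and its adjusted p by limma was 0.891. An antisense transcript of *Rtl1* is made from the maternal chromosome, and without strand the 2 cannot be told apart.

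*Igf2*, the growth factor whose enhancers are shared with *H19*, lies 72.6 kb from it and was at 0.16, 3.58 and 0 TPM across SHF replicates 1, 2 and 3 and at 0, 0 and 0.67 TPM across CNC replicates 1, 2 and 3. It was thus listed at 0 in SHF replicate 3, the library with *H19*. In the *Kcnq1* domain *Kcnq1ot1*, the noncoding RNA that silences *Cdkn1c* on the paternal chromosome, varied little, from 3.48 to 5.49 TPM, while *Cdkn1c*, 161.8 kb away, ran from 0 to 11.75 TPM. The *Kcnq1ot1* gene spans 93092 bases and the *Cdkn1c* gene 2712 bases, and the part of length in these spreads was not tested. Beside *Peg3*, *Zim1* was at most at 3.36 TPM, and *Usp29*, whose start lies 0.1 kb from that of *Peg3*, was listed at 0 in every library. Beside *Ndn*, *Magel2* (26.7 kb away) was listed at 0 in every library. *Snrpn*, a spliceosome component of the same large domain, was at 21.72, 135.9 and 72.56 TPM across the SHF and at 17.63, 12.58 and 50.48 TPM across the CNC replicates, and *Ndn* exceeded it in 6 of 6 libraries by 1.02 to 20.9 times. *Copg2*, a coat protein subunit gene, was below *Mest* in 5 of 6 libraries and above it in SHF replicate 1.

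**Figure D4:**
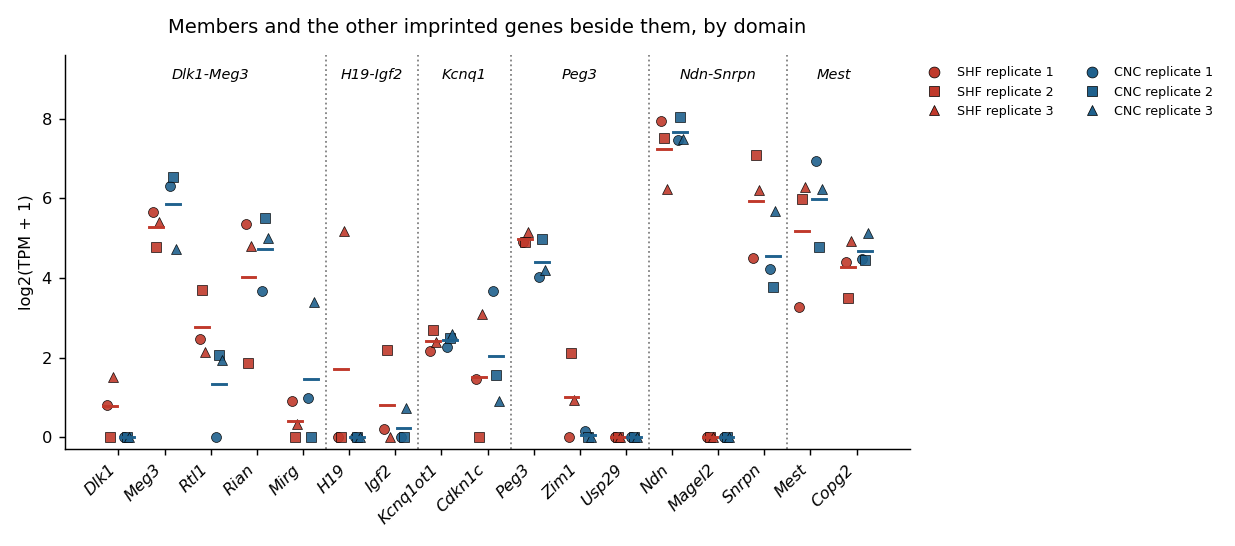
Level as log2(TPM + 1) of *Dlk1*, *Meg3*, *H19*, *Cdkn1c*, *Peg3*, *Ndn* and *Mest* and of other imprinted genes of the same domains, with a point per library and a bar for each lineage mean (n = 3). Detected genes stand beside genes listed at 0 in each of the domains that hold *Peg3* and *Ndn*, and *Kcnq1ot1*, from 3.48 to 5.49 TPM, varies least among those above 0 in every library.

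Among 49 other genes listed as imprinted, 27 were tested, 13 were listed at 0 in every library and 19 (38.8%) were above 0 in all 6. Whether each of them is expressed mainly from 1 parental copy in these cells was not measured. By limma 0 of the 27 passed the adjusted threshold and 1 had an unadjusted p under 0.05, against 5.86% of all genes tested. Of the 27, 17 were higher and 10 lower in SHF, with a median difference of 0.12 on the log2 scale, which changed sign under other settings. The most abundant were *Cd81*, a tetraspanin, at 2409 ± 662 TPM (SD, n = 3) in SHF and 2318 ± 346 TPM (SD, n = 3) in CNC libraries, and *Gnas*, the stimulatory G protein subunit, with means of 432 ± 172 TPM (SD, n = 3) in the former and 556 ± 182 TPM (SD, n = 3) in the latter. *Commd1* and *Sgce* followed with means of 138.5 and 126.2 TPM over the 6 libraries, and *Nap1l4*, *H13*, *Snrpn*, *Blcap*, *Tssc4*, *Igf2r*, *Trappc9* and *Rian* ranged from 67.2 down to 26.3 TPM. *Mest*, *Grb10* and *Meg3* thus lay between *Nap1l4* at 67.2 TPM and *Snrpn* at 51.8 TPM by this mean, and *Ndn* lay between *Gnas* and *Commd1*.

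Of the 27, 5 (18.5%) had lineages that did not overlap, against 11.8% of all genes tested. *Igf2r*, the maternally expressed receptor that clears IGF2, was at 44.17, 79.36 and 34.73 TPM across SHF replicates 1, 2 and 3 and at 17.34, 10.42 and 24.05 TPM across CNC replicates 1, 2 and 3. Its difference was 1.54 ± 0.74 (SE) with an adjusted p of 0.87 by limma. *Nnat*, a paternally expressed proteolipid gene, was at 4.24, 1.54 and 2.11 TPM against 0, 0 and 0.9 TPM. It reached the minimum of the filter through the SHF libraries alone, so that its lack of overlap was fixed by the filter. *Rtl1* was the third gene with higher SHF values. *Slc38a4*, an amino acid transporter expressed from the paternal copy, was at 9.36, 16.66 and 3.16 TPM across the SHF and at 22.13, 29.76 and 57.78 TPM across the CNC replicates, with an adjusted p by limma of 0.874. *Mcts2*, a paternally expressed retrogene inside *H13*, was at 5.83, 0 and 0 TPM against 30.28, 9.04 and 9.29 TPM, with an adjusted p by limma of 0.824 and the unadjusted p of 0.0439 counted above.

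Genes that set, keep or remove imprints were compared as well. Of 17 such genes 12 were tested and 0 passed the adjusted threshold, with 0 at an unadjusted p under 0.05 by limma, 7 higher and 5 lower in SHF and a median difference of 0.36. This median changed sign under other settings. *Atrx*, *Trim28*, the corepressor recruited by imprint-binding zinc finger proteins, and *Smchd1* had the highest means, from 26.8 to 16.4 TPM. *Dnmt1*, the maintenance DNA methyltransferase, was at 7.23, 4.68 and 2.32 TPM across SHF replicates 1, 2 and 3 and at 45.12, 7.61 and 13.83 TPM across CNC replicates 1, 2 and 3. The de novo methyltransferase *Dnmt3a* was at 8.78, 34.17 and 26.75 TPM against 7.04, 2.37 and 8.01 TPM, and *Tet2*, a dioxygenase that oxidises methylcytosine, was at 13.69, 19.34 and 13.17 TPM against 3.63, 8.28 and 6.59 TPM. The lineages of these 3 of 12 genes did not overlap, against 11.8% of all genes tested, and their adjusted p-values by limma were 0.883, 0.876 and 0.896.

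The signalling partners of the 9 genes were compared next. Of 13 genes of insulin and IGF receptor signalling around *Grb10*, 11 were tested, 6 higher and 5 lower in SHF, 0 passed the adjusted threshold and 0 had an unadjusted p under 0.05 by limma, and the median difference was 0.12, which changed sign under other settings. *Nedd4*, the ubiquitin ligase that binds Grb10, was at 529 ± 165 TPM (SD, n = 3) in SHF and 551 ± 58.6 TPM (SD, n = 3) in CNC libraries, and *Shc1* and *Irs1* had means of 100.8 and 38.1 TPM. *Igf1r*, the receptor that Grb10 restrains, was at 17.06, 23.29 and 10.42 TPM across the SHF and at 9.64, 0.2 and 7.4 TPM across the CNC replicates, without overlap and with an adjusted p by limma of 0.884. It was the 1 gene of the 11 whose lineages did not overlap, against 11.8% of all genes tested. Of 18 cell cycle genes around p57, 14 were tested, 7 in each direction, with a median difference of 0.01, which changed sign under other settings, 0 past the adjusted threshold and 0 at an unadjusted p under 0.05 by limma. *Cdk4*, *Ccnd3* and *Cdkn1a* had means of 158.3, 127.4 and 109.3 TPM. Of 7 relatives of the 9 genes 5 were tested, 2 higher and 3 lower in SHF, with a median difference of -0.12, which changed sign under other settings, 0 past the adjusted threshold and 0 at an unadjusted p under 0.05 by limma. The X-linked MAGE genes *Maged1* and *Maged2*, relatives of *Ndn*, had means of 329.9 and 328.5 TPM, and *Maged1* exceeded *Ndn* in 6 of 6 libraries, by 1.02 to 3.1 times. *Mageh1*, a further X-linked MAGE gene, was at 30.58, 84.19 and 0 TPM across the SHF and at 117.3, 21.84 and 27.4 TPM across the CNC replicates, in overlapping ranges.

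Outside these lists, the tested gene with the profile most like that of each member was sought as the smallest root mean square difference between centred log2(TPM + 1) profiles over the 6 libraries. It was *Fkbp2* for *Meg3* (0.17), *Diablo* for *Grb10* (0.13), *Pdlim5* for *Peg3* (0.13), *Ltbr* for *Ndn* (0.14), *Farsb* for *Mest* (0.31) and *Gm20939* for *Cdkn1c* (0.29). *Fkbp2* had values of 141.11, 101.21 and 145.94 TPM across the SHF and 232.29, 247.42 and 78.17 TPM across the CNC replicates, high and low in the same libraries as *Meg3*. With 6 libraries and 10185 genes a close profile can be found for any gene, and these values are a description.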

How the data were processed

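SmartSeq2-amplified cDNA was sequenced, and the authors ran RSEM 1.2.25 with bowtie2 on mm10 and deposited TPM values, with a column per library matched here through its library code. The gene annotation is not given in the sources used here. TPM sums to 1000000 in each library, so no depth, interval or detection limit could be derived. Of the rows, 27 have dates for names and stayed in the fits.

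From the deposited TPM, the SHF and CNC libraries were fitted by lmFit and eBayes with a trend (limma 3.58.1, R 4.3.3) on log2(TPM + 1), which understates changes of low genes, with Benjamini-Hochberg adjustment over all 10185 genes tested. Exact permutation tests were two-sided. Positions are from GENCODE M21 and sequences from RefSeq (GRCm38.p6, the C57BL/6J reference), matched by symbol. Tables and plots used Python 3.11.15, pandas 2.3.3 and matplotlib 3.10.9.

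The members and the 14 gene lists (180 genes, members included, all found) were chosen with earlier results of these data known. The genes named were all members, the 12 most abundant other imprinted genes and those beside members, the 3 most abundant of each other list of related genes, up to 10 list genes without overlap between lineages, and the nearest profile of each tested member. *Nnat*, *Rtl1*, *Tet2*, the ratio of *Cdkn1a* to *Cdkn1c*, *Gm13305*, *Rps27rt* and the marker, microRNA and sex-linked genes named, other than *Cdh5* and *Emcn*, were singled out after their values were seen. Alternatives were pseudocounts of 0.1 and 5, other filters, library weights, rescaling, eBayes with no trend, quantile normalization, a replicate block, other exclusive thresholds and libraries left out.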

Additional observations from a re-analysis of the deposited data

How the results depend on the processing

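Of the 9 genes, 0 passed the adjusted threshold in limma under any alternative in which they were tested, which were 6 genes in most alternatives, 5 with the filter at 5 TPM and all 9 only without a filter. Over all genes the count was 0, except 1 with a pseudocount of 5 (*Gm13305*, adjusted p = 0.0443 by limma) and 1 without the libraries that hold *Xist* (*Rps27rt*, adjusted p = 0.00685 by limma), and it was 0 whichever single library was left out. The number of the 9 genes past the lineage-exclusive rule was 0 under every threshold and with each library left out. The number whose lineages did not overlap was 0, also after rescaling, and from 0 to 2 with a library left out: *Dlk1* without SHF replicate 2, *Peg3* without CNC replicate 2, and *Meg3* and *Grb10* without CNC replicate 3 (2), while 20.1% to 25% of all genes tested did not overlap then.

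Of 95 alternative values of the 6 tested genes, 89 had the same sign as the reported value, and 95 were short of the threshold. The sign changed for *Cdkn1c* with library weights (0.0096), without SHF replicate 2 (0.23) and without CNC replicate 1 (0.28), for *Mest* without SHF replicate 1 (0.15), and for *Ndn* without SHF replicate 3 (0.070) and without the libraries that hold *Xist* (0.28). The size of the *Cdkn1c* difference also depended on the pseudocount, with -1.36 at 0.1 and -0.23 at 5. Leaving out a library gave from -1.32 to 0.28 for *Cdkn1c*, from -1.40 to 0.15 for *Mest* and from -0.78 to 0.070 for *Ndn*. The cause was not tested. The median differences of the related gene lists changed sign among the alternatives: they ran from -0.20 to 0.49 for insulin and IGF signalling, from -0.11 to 0.37 for the other imprinted genes, from -0.11 to 0.80 for the imprint maintenance genes, from -0.45 to 0.18 for the cell cycle genes and from -0.28 to 0.17 for the relatives. Replicate numbers did not pair the libraries: the deviations from the lineage means of same-numbered libraries had correlations of -0.011, -0.004 and -0.011 over genes. With a replicate block 0 genes passed, and the differences were as without it by construction. Unknown depth and frequent values of 0 limit what can be said of *Cdkn1c*, *H19*, *Dlk1* and *Plagl1*.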
